A study of Mus musculus with 15 samples.

Results

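The genes described here are the nuclear receptor PPAR-alpha (Ppara), the proteins it works with and a small set of the genes it switches on in heart muscle. They were chosen by name: Ppara, its dimer partner Rxra, the coactivator Ppargc1a, the related receptor Esrra, and the target genes Pdk4, Ucp2, Ucp3 and Acot1. A probe set was taken where the annotation gave it exactly 1 gene symbol and that symbol was a member. Of the 8 genes, 7 had such a probe set, with 9 probe sets in all among the 12422 on the array, which carried 8251 genes with 1 symbol. Rxra and Esrra had 2 probe sets each. Ucp2 was not analysed here.

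RNA from the left ventricle of mouse hearts was measured on 15 expression arrays in a study of hypertrophy caused by pressure overload. The groups were 3 female sham hearts, 6 male sham hearts, 3 female TAC hearts and 3 male TAC hearts, where TAC is the operation that loads the ventricle and sham its control. Strain, age, genotype and time after the operation were not given in the sources used here, and the labels do not say that every array was a different mouse, which leaves the p-values as a measure of the spread between arrays alone. Arrays are named by sex, operation and the number in their titles.

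PPAR-alpha is a transcription factor activated by fatty acids. It binds DNA as a dimer with RXR-alpha at direct repeats of a short hexamer, and with the coactivator PGC-1alpha (Ppargc1a) it raises transcription of genes for fatty acid uptake and oxidation. ERR-alpha (Esrra) is an orphan receptor that shares the coactivator and many of the targets. In heart muscle the circuit sets the balance between fat and glucose as fuel. Among the targets, Pdk4 encodes a kinase that inactivates pyruvate dehydrogenase and so holds back glucose oxidation, Ucp3 a mitochondrial carrier of the uncoupling protein family, and Acot1 an enzyme that releases fatty acids from coenzyme A.

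The 250 bases before the annotated start of Pdk4 and of Ucp3 are printed. These 2 were chosen as the most and the least variable of the measured targets between arrays. A further reason was that the hexamer that the receptors read is found in the second and not in the first. The sequences are RefSeq's, on build GRCm38.p6, written 5′ to 3′ along the gene's own strand, with each match to AGGTCA in capitals. The Pdk4 stretch is chr6:5496279-5496528 on the minus strand, and the Ucp3 stretch is chr7:100472741-100472990 on the plus strand.
Pdk4: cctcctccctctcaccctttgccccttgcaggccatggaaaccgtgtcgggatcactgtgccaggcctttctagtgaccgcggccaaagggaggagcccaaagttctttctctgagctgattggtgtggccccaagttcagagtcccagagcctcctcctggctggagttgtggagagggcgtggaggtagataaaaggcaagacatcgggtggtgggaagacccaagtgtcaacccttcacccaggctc
Ucp3: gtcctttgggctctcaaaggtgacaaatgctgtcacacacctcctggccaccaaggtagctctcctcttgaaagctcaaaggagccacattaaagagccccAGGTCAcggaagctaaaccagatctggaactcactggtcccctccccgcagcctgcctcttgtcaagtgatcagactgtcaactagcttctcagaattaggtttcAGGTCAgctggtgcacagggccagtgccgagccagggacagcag

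The Ucp3 stretch held 2 matches, starting 149 and 44 bases before the start site, and the Pdk4 stretch held none. The letters AGGTCA, searched on both strands, were present in 14% of the 32851 promoter windows of this length in the table. The 7 measured members had 8 windows, since Rxra has 2 annotated starts. Matches lay in 2 of them, that of Ucp3 and 1 of those of Rxra, where they began 87 and 48 bases before the start. The full direct repeat, 2 copies of AGGTCA with any 1 base between, was present in 0.0335% of all windows and in 0 of the 8. The motif TCAAGGTCA, the extended site that ERR-type receptors bind, contains AGGTCA and was present in 0.387% of all windows and in 0 of the 8. A match describes these letters only, and a window without one says nothing of the factor.

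Values are intensities as the authors deposited them, and 20 was used as a floor below which intensities were not told apart. Of the 9 probe sets, 8 were bright enough to be tested. The probe set of Ppargc1a was below the floor on all 15 arrays, at 0 to 7.27, so the coactivator has no fold change here and only the upper bound of the floor.

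None of the 8 probe sets tested (0 of 8) passed the threshold of an adjusted p of 0.05 in the comparison of TAC with sham averaged over the sexes, where limma called 24 of the 7453 probe sets, or 0.322%. The share called was 0.0805% in females and 0.134% in males, and again it held no member. At an unadjusted p under 0.05 the averaged comparison held 560 probe sets, 7.51%, and no member probe set. The operation itself could be read from load-response genes: Nppa, the atrial natriuretic peptide of stressed myocytes, was 7.11-fold higher on the TAC arrays, Acta1 (skeletal alpha-actin) 4.32-fold and Ankrd1 2.14-fold, each called by limma. The natriuretic peptide gene Nppb, also on the load-response list, gave a fold of 2.26 without passing (limma adjusted p = 0.125). Myh7, the slow myosin heavy chain and the last gene on this list, gave a fold of 1.02 (limma adjusted p = 0.948). The name of the Myh7 probe set ends in _f_at, a suffix used for probes shared by a family of transcripts. Signal from related transcripts cannot be told apart from that of Myh7 here, so this value does not show whether Myh7 itself responded.

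**Figure D1:**
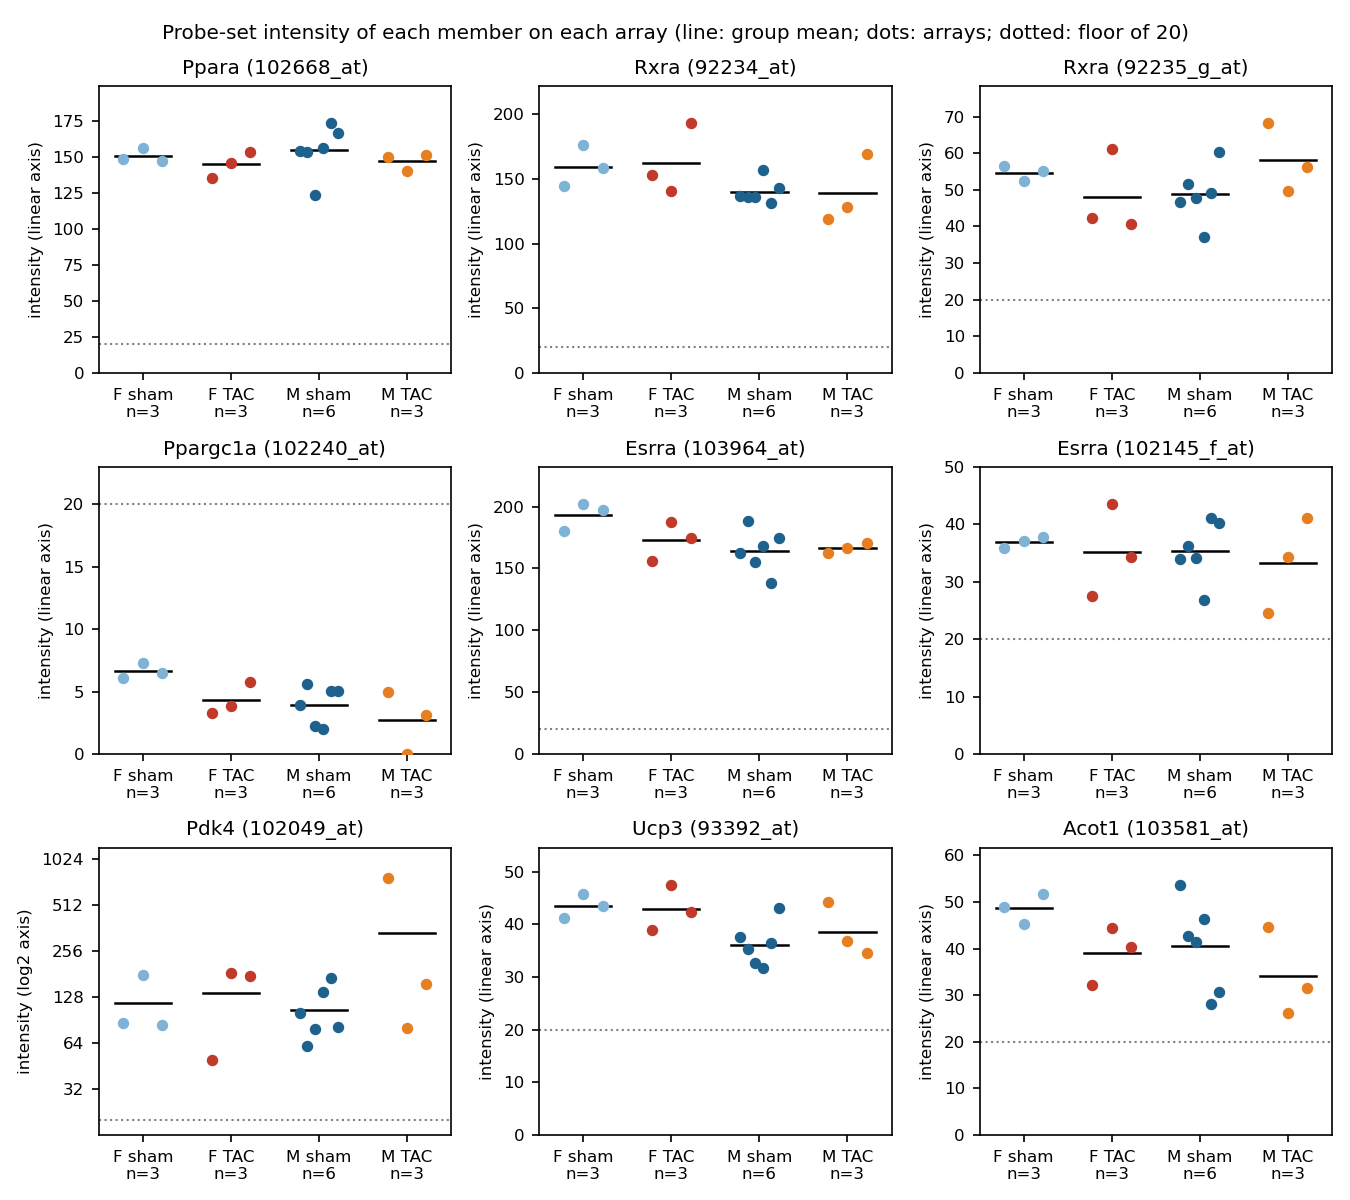
Intensity of each measured member on every array, 1 panel per probe set, with females on the left and males on the right and sham before TAC in each sex. Points are single arrays, black lines group means and the dotted line the floor of 20. The Pdk4 panel has a log2 axis, because 1 male TAC array lies at 761 and the other 14 arrays lie at 49.4 to 184.

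The receptor pair came first. Ppara itself read 147 to 156 on the female sham arrays and 124 to 173, median 155, on the male sham arrays. On the TAC arrays it read 135, 146 and 153 in females and 150, 141 and 152 in males. The TAC values lay inside the sham range of 124 to 173, and the groups overlapped in both sexes. The lower end of that range was male sham 6, and in males the overlap rested on this array alone. The other male sham arrays read 153 to 173, above the male TAC arrays. The averaged TAC effect was -0.06 ± 0.09 (log2, SE; limma adjusted p = 0.923), a fold change of 0.960 with a 95% interval of 0.839 to 1.10. A larger change in the level of Ppara mRNA lies outside this interval, and a smaller one could not be told from 0. The sign of the effect turned in 1 of 11 processing alternatives, where each array was scaled to a common median and the effect was 0.00. It stayed below 0 in all 15 fits without 1 array, at -0.09 to -0.03. An exact permutation test of the operation labels within sex gave p = 0.339, and p = 0.0393 without male sham 6, the lowest array.

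For Rxra, the obligate partner, the brighter probe set (92234_at) read 145, 176 and 158 on the female sham arrays and 131 to 157, median 137, on the male sham arrays. The female TAC arrays read 153, 141 and 193 and the male TAC arrays 119, 129 and 170. The highest and the lowest value of all 15 arrays both came from TAC hearts, and the groups overlapped in both sexes. The fold change was 0.996 (95% interval 0.853 to 1.16; limma adjusted p = 0.995), with a sign that turned in 4 of 11 processing alternatives. The second probe set (92235_g_at), at 37.3 to 68.1 over all arrays, gave a fold change of 1.02 (0.846 to 1.22; limma adjusted p = 0.982). This probe set averaged 54.6 ± 2.02 on female sham arrays and 48.1 ± 11.4 on female TAC arrays (SD, n = 3 each), but 48.8 ± 7.46 (n = 6) and 58.1 ± 9.29 (n = 3) on the male ones. The difference between the sexes in its TAC effect, -0.46 ± 0.25 on the log2 scale, did not pass (limma adjusted p = 1.0), and the first probe set gave 0.04 ± 0.21. The probe sets were not tested against each other.

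The coactivator and the related receptor followed. Ppargc1a read 6.12, 7.27 and 6.46 on the female sham arrays, 1.98 to 5.58 on the male sham arrays, 3.27, 3.88 and 5.74 on the female TAC arrays and 4.99, 0 and 3.16 on the male TAC arrays. All of these lie below the floor and have no order. Esrra (103964_at) read 180, 202 and 197 on the female sham arrays and 138 to 188, median 165, on the male sham arrays. The female TAC arrays read 156, 187 and 175, and the male TAC arrays 163, 167 and 171. The male TAC values sat in the middle of the male sham range, and 1 of the 3 female TAC values lay within the female sham range of 180 to 202 while the other two lay below it. The averaged fold change was 0.954 (0.834 to 1.09; limma adjusted p = 0.911). The dimmer probe set (102145_f_at, a suffix used for probes shared by a family of transcripts) read 24.6 to 43.5 over all arrays, with a fold change of 0.932 (0.764 to 1.14; limma adjusted p = 0.911).

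**Figure D2:**
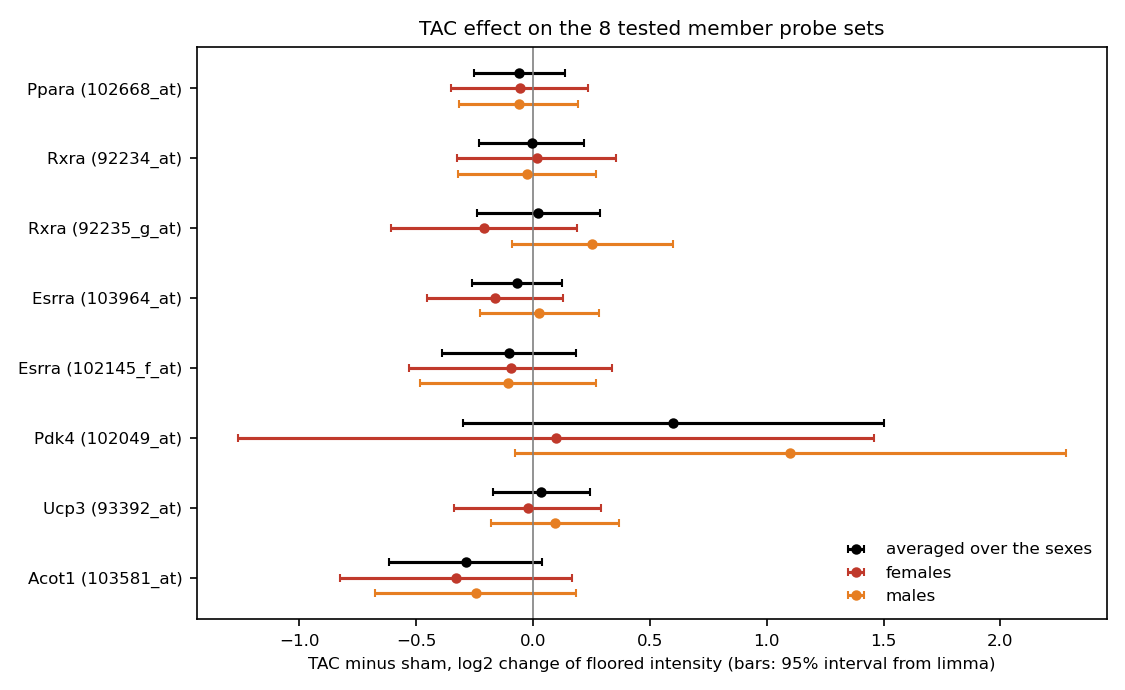
TAC minus sham on the log2 scale for the 8 tested member probe sets, averaged over the sexes and within females and males. Points are limma estimates and bars their 95% intervals. Every interval includes 0, and the Pdk4 interval, -0.30 to 1.5 in the averaged effect, is the widest.

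Among the targets, Ucp3 stayed as narrow as the receptors. Its intensity was 41.2, 45.7 and 43.5 on the female sham arrays and 31.8 to 43.1, median 35.9, on the male sham arrays. It was 38.9, 47.4 and 42.4 on the female TAC arrays and 44.3, 36.9 and 34.6 on the male TAC arrays. The groups overlapped within each sex, and the averaged fold change was 1.02 (0.887 to 1.18; limma adjusted p = 0.960; exact permutation p = 0.638).

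Acot1, the fatty acyl-CoA thioesterase, was the member with the smallest p. It read 48.9, 45.3 and 51.7 on the female sham arrays and 32.3, 44.4 and 40.2 on the female TAC arrays. These 2 groups did not overlap, the only such case among the 8 tested probe sets in either sex. Over all tested probe sets, 8.88% had female groups that did not overlap, so 1 of 8 is near the background. In males the share was 3.17%, and 0 of the 8 were apart. The male sham arrays spread from 28.1 to 53.5 (median 42.0), and the male TAC arrays, at 44.7, 26.2 and 31.5, fell on both sides of that median. The averaged effect was -0.29 ± 0.16 (limma adjusted p = 0.734), a fold change of 0.819 with an interval of 0.652 to 1.03. The exact permutation test gave p = 0.0768, and it gave p = 0.0348 without male sham 8 and p = 0.025 without male TAC 4. Acot1 belongs to a cluster of closely similar thioesterase genes, and signal from its neighbours cannot be told apart from its own here.

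Pdk4 behaved differently from the rest. It read 86.1, 178 and 83.7 on the female sham arrays and 61.3 to 171, median 91.0, on the male sham arrays. The female TAC arrays read 49.4, 184 and 174, and the male TAC arrays 761, 80.2 and 155. Sham arrays alone differed by up to 2.91-fold, and all 15 arrays by 15.4-fold. The lowest array of all was a female TAC heart and the highest a male TAC heart, and the groups overlapped in both sexes. The averaged effect was 0.60 ± 0.43 on the log2 scale, a fold change of 1.52 with a 95% interval of 0.812 to 2.83 (limma adjusted p = 0.810; exact permutation p = 0.255). In males it was 1.10 ± 0.56 (limma adjusted p = 0.838) and in females 0.10 ± 0.64 (limma adjusted p = 1.0), and the difference between the sexes, -1.0 ± 0.85, did not pass either. In that test of the sexes limma called 0 of 7453 probe sets, and 191 had an unadjusted p under 0.05.

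That value rested on single arrays. Without male TAC 4 the averaged Pdk4 effect was 0.14 ± 0.34 and the male effect 0.18 ± 0.48. Without male TAC 5 they were 0.95 ± 0.40 and 1.80 ± 0.56 (limma adjusted p = 0.775 and 0.804), and without female TAC 1 the averaged effect was 0.91 ± 0.41 (limma adjusted p = 0.588). Pdk4 was called in none of these fits.

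The spread of the members within their groups ran over nearly the whole range of the array. The residual SD of Pdk4 within the 4 groups was 0.96 on the log2 scale, larger than that of all but 14 of the 7453 tested probe sets (percentile 99.8). Without male TAC 4 it was still 0.71, at percentile 99.4. Ppara, at an SD of 0.12, stood at percentile 4.52 and Esrra (103964_at), also at 0.12, at percentile 4.25. Ucp3 had an SD of 0.15 (percentile 10.2) and Rxra (92234_at) 0.18 (percentile 19.3). Acot1, at 0.31, stood at percentile 74.3. The dimmer probe sets of both partners lay near the middle, Rxra (92235_g_at) at 0.23 (percentile 43.3) and Esrra (102145_f_at) at 0.26 (percentile 57.0). Ppara, Ucp3 and the brighter probe sets of Rxra and Esrra were thus among the steadier ones from array to array, and Pdk4 was among the most variable. These percentiles are descriptions, with no test.

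**Figure D3:**
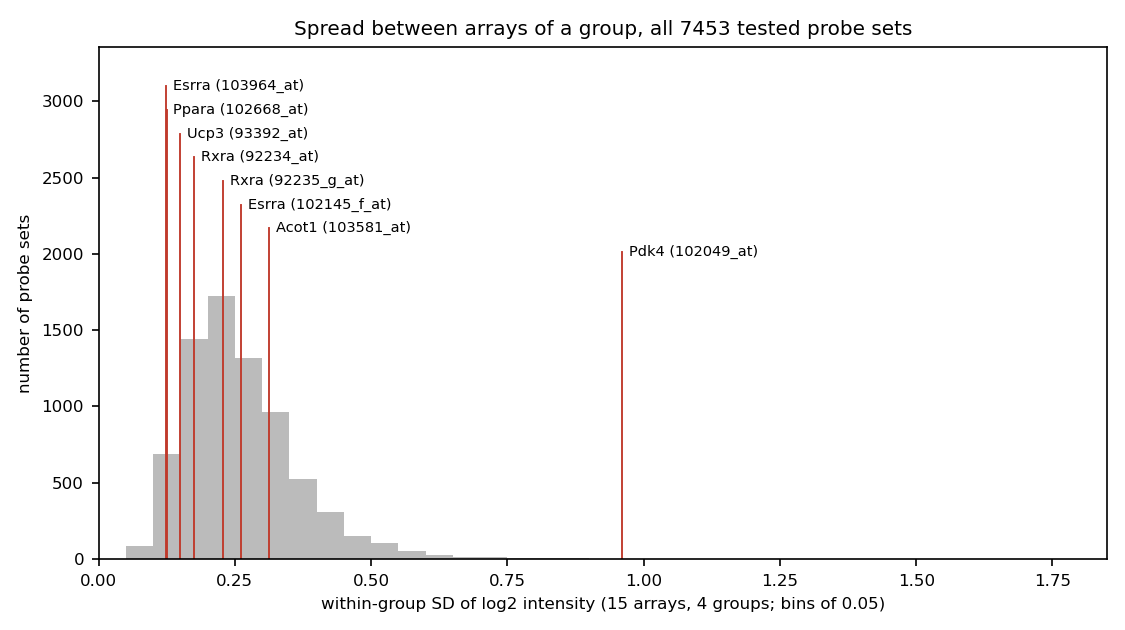
Distribution of the within-group residual SD (log2 scale) over the 7453 tested probe sets, as counts per bin, with a red line at each member (the height of the lines carries no value). Ppara and the brighter Esrra probe set (103964_at) lie at 0.12, near the left edge of the distribution, the dimmer Esrra probe set (102145_f_at) lies at 0.26, near its middle, and Pdk4 lies at 0.96, far to the right.

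The array with the extreme Pdk4 value was looked at further, and these probe sets were chosen after their values were seen. Ranked by the gap to the next array, Pdk4 was the third of the probe sets that stood highest on male TAC 4, at 761 against at most 184 on the other 14 arrays. Polb, a DNA repair polymerase, read 613 there against at most 23.3 elsewhere. A probe set without a single gene symbol read 430 against at most 11.4. Coro2b read 198 against at most 59.9 and Tnk2 47.6 against at most 23.4. Of the 27 other PPAR-alpha targets tested, 2 (Fabp3 and Plin2) were highest on this array and 0 were lowest. The share of all tested probe sets that were highest or lowest on it was not counted, so nothing is concluded about the targets. What sets this array apart was not tested.

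Female and male sham hearts were compared because the groups differ in sex as well as operation. Among the 8 probe sets, 7 read higher in females, beside a median over all tested probe sets of 0.05 on the log2 scale, and 0 passed the threshold (limma called 0 of 7453, 0%, with 351, 4.71%, at an unadjusted p under 0.05). Rxra and Esrra are each counted by both of their probe sets. The share of all tested probe sets that read higher in females was not counted, so the 7 of 8 is a description. Ucp3 averaged 43.5 ± 2.25 (SD, n = 3) in females and 36.2 ± 4.07 (n = 6) in males, a fold of 1.21 with an interval of 0.999 to 1.46 (limma adjusted p = 0.974). Esrra (103964_at) averaged 193 ± 11.2 and 164 ± 17.1 (limma adjusted p = 0.974). Ppara, at 151 ± 5.07 and 155 ± 17.1, was the probe set that read lower in females.

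Whether the members varied together was examined in the 9 sham hearts. Over the 28 pairs of probe sets, Pearson's r ran from -0.53 to 0.84, and exact permutation of the pairings put 3 pairs under an unadjusted p of 0.05 and 0 after Benjamini-Hochberg adjustment over the 28 (smallest adjusted p = 0.168, and 0.413 for Spearman's rho). The smallest p belonged to Rxra (92235_g_at) with Ucp3, at r = 0.78 (exact permutation p = 0.00783, adjusted p = 0.168; rho = 0.73), at r = 0.67 without the 2 farthest arrays and at r = 0.82 in the 6 male hearts alone. The brighter Rxra probe set (92234_at) gave r = 0.50 with Ucp3 (exact permutation p = 0.168). That became -0.13 without the 2 farthest arrays and -0.26 in male hearts. The 2 probe sets of Rxra gave r = -0.03 with each other, and those of Esrra r = -0.0013. The pairs therefore describe probe sets and not genes. Rxra (92235_g_at) with Esrra (102145_f_at) gave r = 0.84 (exact permutation p = 0.012). For this pair r was 0.27 without the 2 farthest arrays but 0.88 in the 6 male hearts alone. The exact permutation p in male hearts was 0.0306, not adjusted for the number of pairs. For every pair, the 2 farthest arrays are those farthest from the median of its first-named probe set. Rxra (92234_at) with Esrra (103964_at) gave r = 0.72 (exact permutation p = 0.0289), 0.43 without the 2 farthest arrays and 0.39 in male hearts. Ppara with its targets gave r = 0.46 for Pdk4 (exact permutation p = 0.217), r = 0.31 for Ucp3 (exact permutation p = 0.457) and r = -0.47 for Acot1 (exact permutation p = 0.217). Without the 2 farthest arrays these became 0.16, 0.01 and -0.84, the last with an exact permutation p = 0.0254 that is not adjusted for the number of pairs. Ppara with Acot1 gave r = -0.46 in the 6 male hearts alone (exact permutation p = 0.392). It gave r = -0.42 (exact permutation p = 0.370) without the 2 farthest arrays after each array was scaled to a common median. With each array scaled to a common median, 4 pairs had an unadjusted p under 0.05 and again 0 passed, at a smallest adjusted p of 0.310.

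The genes whose pattern over the 15 arrays was most like each member's were taken from 5654 genes by Pearson's r of log2 values. These are descriptions over arrays that share scaling and noise. For Ppara they were Palm (r = 0.86), Serpina5 (0.84) and Rimklb (0.83, below the floor on 1 array). For Rxra they were Pcid2 (0.91), Il9 (0.86, below the floor on 8 arrays) and Srsf11 (0.84), and for Esrra Tmem176b (0.87), Usp19 (0.83) and Ppp2r5c (0.83, below the floor on 5 arrays). For Ucp3 they were Pax2 (0.85), Stx7 (0.83) and Gtpbp4 (0.83), and for Acot1 Klrd1 (0.85), Dhrs7 (0.82) and Uso1 (0.81). For Pdk4 they were Snrnp25 (0.85), Igtp (0.81) and Tnk2 (0.79), and without male TAC 4 these became 0.75, 0.45 and 0.32. Snrnp25 was below the floor on 4, Igtp on 9 and Tnk2 on 12 of the 15 arrays. None of these genes is a listed PPAR-alpha target. Only 27 of the listed targets were tested, so few could appear among 5654 genes and nothing follows from their absence.

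The wider circuit was read from lists chosen from textbook knowledge, with earlier results of these data known. Of 28 other receptors and coregulators, 21 were on the array and 10 were bright enough to test, with 5 above and 5 below 0, a median of 0.00 and none called. Lpin1, which encodes a phosphatidate phosphatase that also acts as a coactivator, had the smallest p (-0.33 ± 0.16, limma adjusted p = 0.682). It was followed by the acetyltransferase coactivator Crebbp (-0.22 ± 0.16, limma adjusted p = 0.810) and by Cited2 (0.15 ± 0.14, limma adjusted p = 0.863). Cited2 was near the floor, and its male sham arrays, at 9.11 to 17.7, all lay below it. As for Ppara, Rxra and Esrra, the regulators gave no call.

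Among the other PPAR-alpha targets, 2 genes of beta-oxidation fell, while no change of the receptor's own mRNA was called. Of 37 genes of fatty acid uptake, oxidation and storage, 30 were on the array and 27 were tested, with 20 below 0 and 7 above, against 58.2% of all tested probe sets below 0. Their median was -0.15 and that of all tested probe sets -0.03. Limma called 2 of the 27 lower, where 0.0537% of all tested probe sets were called lower. At an unadjusted p under 0.05, 10 of 27 were lower and 0 higher, and 4.66% of all tested probe sets were lower. Because the list was chosen with earlier results of these data known, these counts are descriptions and no independent test.

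Both called genes belong to mitochondrial beta-oxidation. Acaa2, the thiolase of the last step, read 725 to 968 on female sham arrays and 462 to 493 on female TAC arrays. It read 660 to 1007, median 838, on male sham arrays and 442 to 668 on male TAC arrays, so that the female groups were apart and the male groups overlapped narrowly. Acaa2 fell by 0.67 ± 0.12 on the log2 scale (SE; limma adjusted p = 0.0214). Ech1, an auxiliary isomerase for unsaturated fatty acids, read 1090 to 1301 and 625 to 761 in females and 922 to 1330 (median 1028) and 689 to 918 in males. The male TAC arrays all lay below the lowest male sham array, and the female groups were apart as well. Ech1 fell by 0.56 ± 0.11 (limma adjusted p = 0.0463). The call of Ech1 was kept in only 2 of the 15 fits without 1 array, those without male sham 4 or male TAC 6, with limma adjusted p up to 0.195. The call of Acaa2 was kept in 11 of 15 and lost without female sham 1, female sham 3, female TAC 2 or male TAC 5, with limma adjusted p up to 0.0798. Both were also lost with a lower floor, with no filter on dim probe sets and with the title numbers as a replicate block, and Ech1 in the additive model as well. Eci1, a related isomerase, missed the threshold at -0.63 ± 0.14 (limma adjusted p = 0.0694). The other targets with an unadjusted p under 0.05 were Acadm, Hadhb, Echs1, Cpt2, Decr1, Crat and Etfdh, all lower. Against these the member targets read 0.60 for Pdk4, 0.03 for Ucp3 and -0.29 for Acot1 on the same log2 scale, and none was called. The difference between the called targets and the members was not tested.

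**Figure D4:**
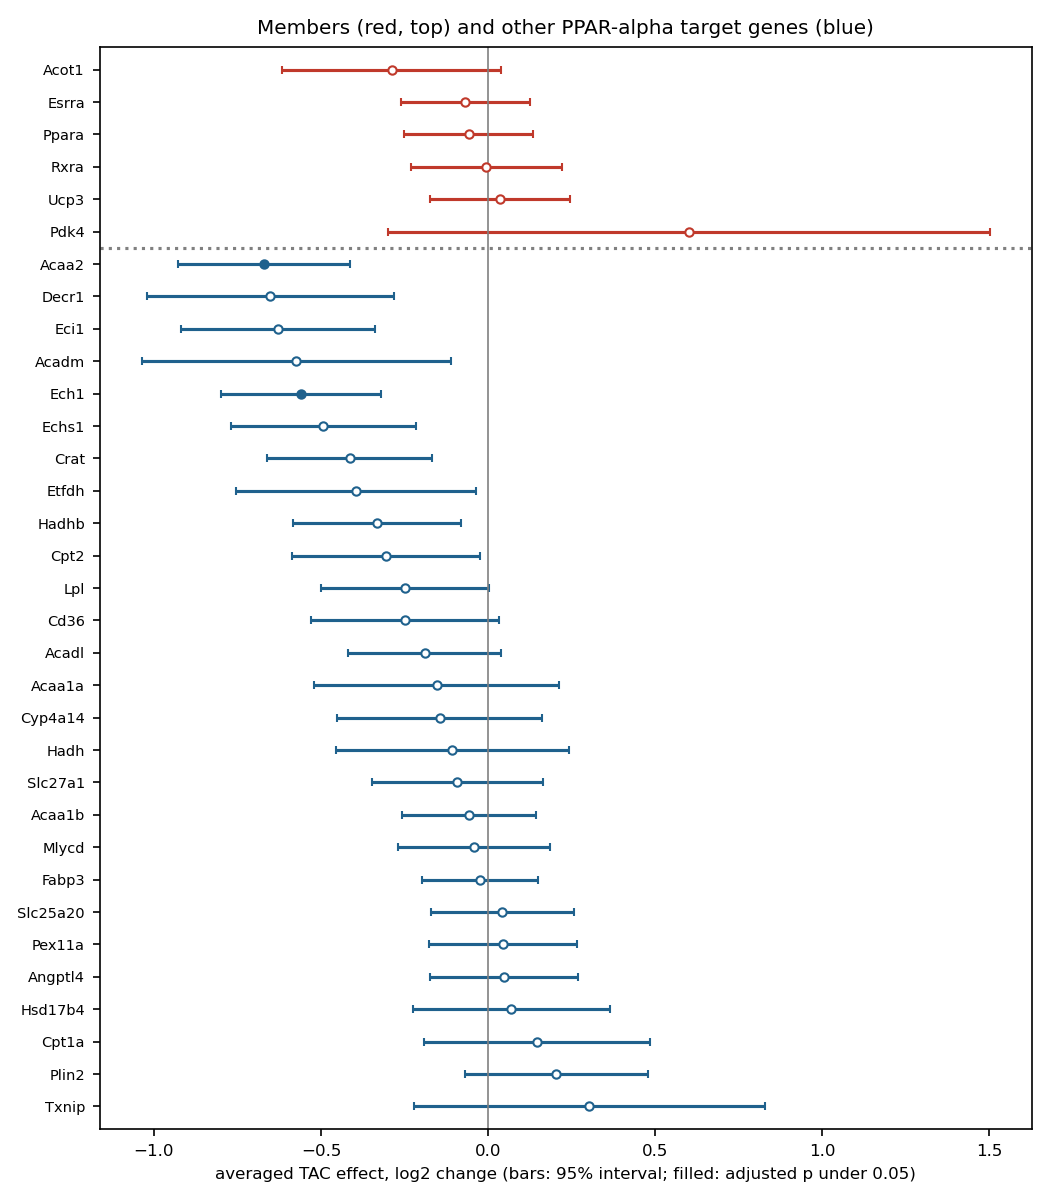
Averaged TAC effect (log2, with 95% intervals from limma) of the 27 other PPAR-alpha targets tested and of the tested members by their brighter probe set, with filled points for an adjusted p under 0.05. Of the other targets 20 lie below 0, Acaa2 and Ech1 are called lower, and the interval of Ppara itself runs from -0.25 to 0.14.

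The neighbours of the member targets gave no call. For the enzyme that Pdk4 regulates, 5 of 10 genes of the pyruvate dehydrogenase list were tested, with 2 above and 3 below 0. The subunits Pdhb (-0.27 ± 0.18), Dld (-0.25 ± 0.18) and Dlat (0.10 ± 0.15) had limma adjusted p of 0.791, 0.812 and 0.920. Beside Ucp3, 3 of 5 uncoupling proteins and nucleotide carriers were tested, with 2 above and 1 below 0. Slc25a14, a brain-type uncoupling protein, gave 0.42 ± 0.18 (limma adjusted p = 0.611), the main heart nucleotide carrier Slc25a4 gave -0.11 ± 0.11 (0.877) and Slc25a5 gave 0.05 ± 0.15 (0.964). Slc25a14 was near the floor of 20. Its female sham arrays, at 13.7 to 17.4, all lay below it. So did some of its male sham arrays, at 2.59 to 32.9, and of its female TAC arrays, at 15.3 to 38.4. The name of the Slc25a5 probe set ends in _f_at, so signal from related transcripts cannot be told apart from its own. Beside Acot1, 4 of 11 thioesterases were tested, with 1 above and 3 below 0. Acot9 gave 0.41 ± 0.19 (limma adjusted p = 0.640), Acot8 -0.39 ± 0.19 (0.686) and Acot7 -0.14 ± 0.10 (0.804). The name of the Acot9 probe set also ends in _f_at, with the same limit.

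The arrays measured whole tissue, in which fewer cells of a type and less RNA per cell cannot be told apart. Of the cardiomyocyte markers, 10 of 12 were tested, with 4 above and 6 below 0 and a median of -0.04, and none was called. At an unadjusted p under 0.05, 2 of the 10 were lower and 0 higher, beside the 4.66% of all tested probe sets that were lower. They were the calcium release channel Ryr2 (-0.52 ± 0.13, limma adjusted p = 0.166) and the fast myosin Myh6 (-0.32 ± 0.13, limma adjusted p = 0.559). With quantile normalization or array weights 1 marker of this list was called lower. Their summed intensity was 37665 to 40097 on female sham, 33378 to 39954 on male sham, 34629 to 39136 on female TAC and 34079 to 42234 on male TAC arrays. The summed macrophage and leukocyte markers were 546 to 563, 530 to 631, 494 to 728 and 538 to 561 in the same order, with 8 of 14 tested and a median of 0.01. Fat cell markers summed to 235 to 263, 247 to 322, 216 to 277 and 218 to 279 (3 of 9 tested), and fast skeletal muscle markers to 655 to 720, 547 to 732, 632 to 711 and 677 to 741. Of the skeletal muscle markers 7 of 9 were tested, with 1 above and 6 below 0 and a median of -0.10, and none was called. No marker was at 0 on all arrays of a group, but the sums include values below the floor. In every group, 6 of the 14 macrophage and leukocyte markers were below the floor on all arrays. Of the 7 fat cell markers on the array, 2 were so in each sham group and 4 in each TAC group. The part of cell composition in the values of the members and of the other PPAR-alpha targets was not tested.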

How the data were processed

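Intensity values of 15 arrays were used as the authors deposited them, on a linear scale; no label or header says how they were computed or scaled. The members and gene lists were chosen with earlier results of these data known. After 66 control probe sets were left out, 12422 remained: 10833 with 1 gene symbol in the platform annotation, 396 with several and 1193 with none. Intensities were raised to a floor of 20 before log2, and the brightest 60% by mean (7453 probe sets) were tested with limma 3.58.1 in R 4.3.3, with a mean per group, moderated variances and Benjamini-Hochberg adjustment over all 7453, called at 0.05. Array medians ran from 21.3 to 26.7, so the deposited scaling was kept, and 42.4% to 48.4% of values per array were below the floor. The number of arrays limits the precision. Permutation tests were exact and two-sided, over 1680 arrangements of the operation labels within sex. Genes were named by rule: all members, called list genes and the 3 of smallest p per list, and the 3 most alike genes per member. The other targets at an unadjusted p under 0.05, the probe sets highest on male TAC 4, and the spread without that array, were chosen after their values were seen. The fitting was tested on simulated data. Alternatives covered scaling, floor, filter, variance model, array weights, model and each array left out. Pattern likeness used tested genes with 1 symbol.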

Additional observations from a re-analysis of the deposited data

Results flagged for a closer look

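Of the members and named pathway genes, 27 probe sets were examined for an array that stood apart within the 6 male sham arrays, and in 3 of them such an array was found, male sham 6 in 1 and male sham 7 in 2. Chance gives about 1 in 20. Ppara read 124 on male sham 6 and 153 to 173 on the other 5 arrays, a gap of 0.639 of the group's range on the log2 scale. Male sham 7 was the lowest for both nucleotide carriers. Slc25a4 read 2716 there and 3775 to 4141 on the others (gap 0.780 of the range), and Slc25a5 read 103 there and 165 to 195 on the others (gap 0.733). The Slc25a5 probe set is of the shared _f_at kind, so these need not be separate cases. Male sham 7 also had the lowest array weight of the sham arrays (0.556). Its median correlation with the other arrays, 0.942, was the lowest of the sham arrays too. What sets male sham 7 apart was not tested.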

How the results depend on the processing

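Across 40 member results, 990 values under another setting or without 1 array stayed uncalled; changes of sign between uncalled values were not counted as changes. Of the counts over all tested probe sets, 24 in the averaged effect (20 higher, 4 lower) became 45 with quantile normalization (37 higher, 8 lower) and with median centring (39 higher, 6 lower), 10 with a lower floor, 13 with no filter and 68 with array weights (43 higher, 25 lower). The 6 in females became 10 with trended and robust moderation and 36 with array weights. The 10 in males became 18 with median centring, 3 with a lower floor, 6 with an offset of 20, 4 with no filter and 16 with trended and robust moderation. The 0 between the sexes in sham hearts became 2 with no filter, 1 with trended and robust moderation and 2 with array weights. The 2 called PPAR-alpha targets became 0 with a lower floor or no filter, 5 with array weights and 1 in the additive model. The receptors below 0 went from 5 of 10 tested to 1 of 4 under a stricter filter, and the carriers below 0 from 1 of 3 to 2 of 4 with no filter and 2 of 3 with array weights. With each array left out in turn, the averaged effect had 12 to 29 calls (lowest without male TAC 5), 2 to 8 in females, 3 to 12 in males, 0 to 2 called targets, 3 to 5 pyruvate dehydrogenase genes below 0 and 1 to 2 carriers below 0; the averaged count also moved by over 1.5 times without female sham 1, 2 or 3 (14 each), male sham 6 (15) or female TAC 2 (15). Permutation p-values ran from 0.0393 to 0.554 for Ppara and from 0.025 to 0.245 for Acot1. The title numbers were taken as a replicate block although deviations of same-numbered arrays correlated at 0.117 to 0.270 in females and -0.0828 to 0.0641 in males, and 4 of 6 TAC arrays correlated best with their own number. With this replicate block 8 probe sets were called in the averaged effect, 3 in females and 3 in males, 0 targets were called (Acaa2 and Ech1 lost) and 2 carriers lay below 0. The block could not be fitted for the sham sex difference. The causes of these shifts were not tested. Intensities below the floor, Ppargc1a among them, limit what can be read.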
